A study of Mus musculus with 8 samples.

Results

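The histone genes of the mouse were followed in 2 kinds of brain phagocyte sorted after an experimental stroke. Histone genes were taken as every gene name on the array that starts with Hist1h, Hist2h, Hist3h, Hist4h, H2af, H3f or H1f, which gave 64 names among the 34821 names of the array's gene probes. Of these, 49 carry a Hist name and are called replication-linked here, and 15 carry an H2af, H3f or H1f name and are called variant. All animals were bone marrow chimeric C57BL/6 mice that had 30 minutes of middle cerebral artery occlusion (MCAo) and then 7 days of reperfusion. From the ischemic brain tissue, GFP+ cells were sorted as resident microglia and RFP+ cells as invading macrophages. Each of 4 animals, A to D, gave 1 sample of each kind, so there were 4 microglia samples and 4 macrophage samples, and replicate numbers 1 to 4 stand for animals A to D. There was no sample without ischemia, so every comparison is between the cell groups within the injured brain.

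Histones are the proteins around which nuclear DNA is wound. The core histones H2A, H2B, H3 and H4 form the nucleosome, and the linker histone H1 binds the DNA between nucleosomes. Genes with a Hist name lie mostly in clusters, are transcribed mainly while DNA is being copied, and their messages typically end in a conserved stem-loop in place of a poly(A) tail. Variant histones such as H3.3, H2A.Z and H1.0 come from separate genes with polyadenylated messages, are made throughout the cell cycle and replace the replication-linked proteins in non-dividing cells. Some Hist genes also give polyadenylated messages in cells that have stopped dividing. Microglia are long-lived macrophages of the brain, whereas monocyte-derived macrophages enter from the blood after injury.

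The replication-linked genes are so alike that the probes themselves bear on what could be measured, and the sequences that show this are given here as deposited with the arrays. Each probe is a single strand of 60 bases, and its position is given in build mm9, as in the array files. In the following H2A probes, capitals mark bases that differ from the Hist1h2ah probe or extend beyond it.
Hist1h2ah: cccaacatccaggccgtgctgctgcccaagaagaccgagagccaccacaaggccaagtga
Hist1h2af: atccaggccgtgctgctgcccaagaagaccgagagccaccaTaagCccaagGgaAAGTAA
Hist1h2ak: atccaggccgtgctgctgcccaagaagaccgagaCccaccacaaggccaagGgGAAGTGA
H2afj: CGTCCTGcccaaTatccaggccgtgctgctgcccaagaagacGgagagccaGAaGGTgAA
The Hist1h2af and Hist1h2ak probes were each identical to the Hist1h2ah probe at 51 of the 54 bases they share, and the probe of the variant H2afj was identical at 44 of 53. Pairs of probes of different histone genes that matched at 90% or more over at least 40 bases numbered 17 and involved 11 probes. They formed a group of 6 H2A probes (Hist1h2af, Hist1h2ag, Hist1h2ah, Hist1h2ak, Hist1h2an and Hist2h2aa2), a group of 3 H4 probes (Hist1h4d, Hist1h4j and Hist1h4k) and the pair H2afj and Hist2h2ac. Within such a group, signal from a near-identical message of another member cannot be told apart from the named gene's own, and the values are not independent. The Hist1h4k probe in the H4 group was well above background on only 3 arrays and gave no values below. The Hist1h4k values given below come from another probe of that gene, which was in none of these pairs.

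The stem-loop of the replication-linked message was itself part of some probes. Capitals mark the 16 letters of the histone mRNA stem-loop, searched on the probe's own strand only.
Hist2h2aa2: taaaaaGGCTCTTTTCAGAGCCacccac
Hist1h3a: accaaaGGCTCTTTTCAGAGCCaca
Hist1h4m: actaaaGGCCCTTTTCAGGGCCatccaa
Hist2h2bb: ccaaaaGGCTCTTTTCAGAGCCacttta
Such a stem-loop was present in 6 of the 57 replication-linked probes, in 0 of the 23 variant probes and in 7 of all 55681 gene probes. Of the 6 replication-linked probes that hold it, 1 passed the filter for testing, against 31 of the 51 without it. The filter asked for a signal well above background on 4 or more arrays. The passing probe was that of Hist2h2aa2, where the stretch shown covers bases 1 to 28, so most of the probe lies after the stem-loop. In the other such probes the stretch ends at base 60. The letters AATAAA or ATTAAA, the common poly(A) signals, were present in 5 of the 57 replication-linked probes, in 4 of the 23 variant probes and in 13.7% of all gene probes. The last 30 bases are shown for the 3 Hist genes with the largest differences between the groups, with such a signal in capitals where there is 1.
Hist1h2be: tactgttcattATTAAAgcattcctgattg
Hist1h2bg: gctgccagatacactatcaatttgtaaact
Hist2h3c2: ataattacatcaccagacttctggaaaaaa
The labels say that mRNA was isolated on magnetic beads and amplified as cDNA, and whether capture used the poly(A) tail is not given in the sources used here. The part this plays in the level of stem-loop messages was not tested.

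On each array 45.7% to 57.1% of the probes had a signal well above background, and 0 gene spots were saturated. Levels are log2 signals relative to the 75th percentile of each array. The cell labels were checked with marker genes: 7 of 11 microglia markers were lower in the macrophage samples and 5 of 10 monocyte-derived macrophage markers were higher, each with an adjusted p under 0.05 in limma, a linear model fitted across all 19745 tested names with Benjamini-Hochberg adjustment. Ly6c1 is in both the monocyte-derived macrophage list and the endothelial list, so these lists are not independent. Of 6 tested T and NK cell markers, 2 were called higher in macrophages, beside 2.51% of all names. Their mean level was -3.17 to -2.76 on the microglia arrays and -2.11 to -0.25 on the macrophage arrays. Macrophage replicate 2 held the value of -0.25. Endothelial markers, of which 4 of 10 tested were called higher in macrophages, had a mean level of -3.11 to -2.18 on the microglia arrays and of -0.388 to 6.39 on the macrophage arrays. Macrophage replicate 2 held the value of 6.39 and the other macrophage arrays reached up to 3.01. The same array was also the highest for Hba-a1, a haemoglobin gene and the only testable marker of 6 erythroid ones, at 7.64 against up to 2.86 on the other macrophage arrays, and for the mean of 6 tested neutrophil markers, at 4.06 against up to 2.32. Where leaving out macrophage replicate 2 changed the call or the sign of a gene named with values, both values are given, and the part that other cell types play in them was not tested.

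Of the 64 histone genes, 38 could be tested and 26 could not. Among the 26, 16 were not well above background on any array with any probe and 10 were so on 1 to 3 arrays. Tested were 27 of the 49 replication-linked genes (4 of 6 H1, 8 of 14 H2A, 7 of 12 H2B, 4 of 8 H3 and 4 of 9 H4) and 11 of the 15 variants (2 of 4 H1, 7 of 9 H2A and 2 of 2 H3). On all 8 arrays, 30 of the 38 were well above background. The passing members do not stand for all 64, because the filter removed the dimmer ones.

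A single histone gene passed the test. Hist1h2be, a replication-linked H2B gene, was lower in macrophages, and 0 of the 38 were called higher. Over all names tested, 4.14% were called lower and 2.51% higher, so the members' share of 2.63% called lower was not above the background. At an unadjusted p under 0.05 in limma, 6 members were lower and 5 higher, which is 15.8% and 13.2% of the 38 beside 12.5% and 11.5% of all names. The 4 microglia values and the 4 macrophage values did not overlap for 6 members that were lower in macrophages and for 2 that were higher, beside 9.47% and 7.49% of all names. The 6 were Hist1h2be, Hist1h2bg, Hist2h3c2, Hist1h4k, Hist2h4 and H1foo, and the 2 were H1f0 and H3f3b. In these sorted samples a lower level can come from less RNA per cell or from fewer cells that hold the message, and these cannot be told apart.

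As a description, most replication-linked differences lay below 0, whereas the variants lay around the median of all names. The median log2 difference, macrophages minus microglia, was -0.28 over the 27 replication-linked genes, with a range of -2.41 to 1.11, and 23 of the 27 differences were below 0. Over the 11 variants the median was 0.02, with a range of -1.44 to 0.80, and 6 of the 11 were above 0. Without the oocyte gene H1foo the median of the remaining 10 was 0.20, and 6 were above 0. Without macrophage replicate 2 the variant median was 0.64, and 6 of the 11 were again above 0. Over all 19745 names the median was 0.02 and 48.8% of differences were below 0, and 5 of the 11 variants were above that median. The 23 lower values are not 23 separate observations, since 6 of them come from the near-identical H2A probes shown above. The count depended on how the arrays were scaled: centring on the array median moved all names up by 0.21 and left 18 of the 27 below 0, while 23 of the 27 stayed below the median of all names under that scaling too. Without microglia replicate 3, 19 of the 27 were below 0 and the median was -0.15.

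**Figure D1:**
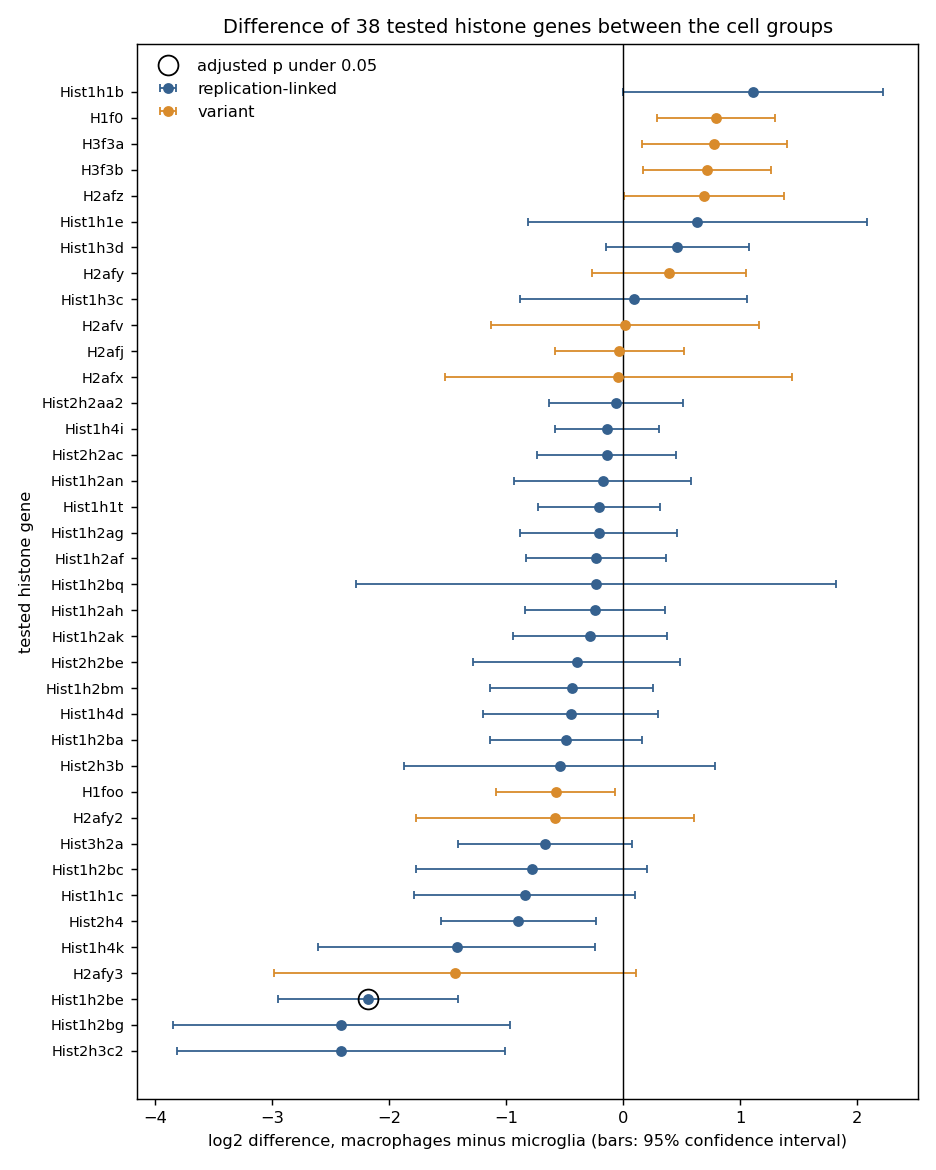
Log2 difference between macrophages and microglia (x axis) for the 38 tested histone genes (y axis), ordered by size, with 95% confidence intervals; blue points are replication-linked genes, orange points variants, and a black ring marks an adjusted p under 0.05. Only Hist1h2be carries the ring, and 4 of the 5 largest differences above 0 belong to variants.

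The H2B genes held the only call. H2B pairs with H2A in the nucleosome, and 7 of its 12 replication-linked genes were tested, all with differences below 0 (median -0.49). Hist1h2be (H2bc6 in current naming, probe at chr13:23675610-23675669 of mm9, minus strand) had log2 levels of -0.42, -0.90, -1.26 and -0.80 in microglia replicates 1 to 4. In macrophage replicates 1 to 4 it had -2.38, -3.10, -2.81 and -3.80. Every macrophage value lay below every microglia value, and the macrophage sample was the lower of the pair in 4 of 4 animals. The fitted difference was -2.18 (SE 0.34, 95% confidence interval -2.95 to -1.41), a 4.52-fold lower level in macrophages with an adjusted p of 0.0077 in limma. Its probe was well above background on 3 of the 4 macrophage arrays. In limma fits with a block, the adjusted p was 0.0285 for the animal, where 2.45% of all names were called lower, and 0.0142 for the slide. With both blocks together the call was lost, at -2.17 with an adjusted p of 0.0604.

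Hist1h2bg (H2bc8, probe at chr13:23663823-23663882 of mm9, plus strand) had microglia levels of 1.34, 2.27, 1.59 and 1.68. Its macrophage levels were -0.38, -2.54, -0.66 and 0.85. The groups did not overlap and macrophage replicate 2 was the lowest array. The difference of -2.41 (SE 0.63, 95% confidence interval -3.85 to -0.96) had an adjusted p of 0.0599 in limma, which misses the threshold. Without macrophage replicate 2 the difference was -1.79 with an adjusted p of 0.0269 in limma, and an animal block gave an adjusted p of 0.124. The other 5 tested H2B genes had differences of -0.78 to -0.23, and none passed the test. They include Hist1h2ba, the H2B of the testis, whose difference was -0.49.

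Among the H3 genes, Hist2h3c2 (H3c15) stood furthest from 0. H3 is the core histone whose tail carries many of the best known chromatin marks. The levels of Hist2h3c2 were -0.10, -0.67, -0.15 and -1.74 in microglia and -2.14, -1.97, -3.92 and -4.27 in macrophages. The groups did not overlap, and the probe was well above background on 2 of the 4 macrophage arrays. The difference was -2.41 (SE 0.62, 95% confidence interval -3.81 to -1.01) with an adjusted p of 0.0549 in limma. Leaving out macrophage replicate 2 gave -2.78 with an adjusted p of 0.0234 in limma. The array files give this probe no genome position.

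The other tested H3 genes did not follow it. Hist2h3b (H3c13) had levels of -1.50, -1.96, -1.02 and -1.75 in microglia and of -0.32, -3.31, -2.48 and -2.29 in macrophages. Its macrophage values lay on both sides of the microglia values, and the difference of -0.54 had a 95% confidence interval from -1.87 to 0.79. It was -0.14 without macrophage replicate 2 and -1.13 without macrophage replicate 1. Hist1h3d and Hist1h3c had differences of 0.46 and 0.09. For Hist1h3d the macrophage sample was the higher in 4 of 4 animals, though by only 0.0014 in animal B, and the adjusted p was 0.331 in limma.

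H4, the most conserved core histone, had 4 tested genes, all with differences below 0. Hist1h4k (H4c12) had levels of -1.50, -1.39, -1.16 and -2.01 in microglia and of -4.58, -2.59, -2.16 and -2.42 in macrophages. Its groups did not overlap, with macrophage replicate 1 the lowest, and the difference of -1.42 had an adjusted p of 0.140 in limma. The probe was well above background on 3 of the 4 macrophage arrays, and the difference was -0.88 without macrophage replicate 1. Hist2h4 (H4c14) had levels of -0.65, -1.40, -0.58 and -1.15 in microglia and of -2.16, -1.55, -1.47 and -2.18 in macrophages. These groups were also separate, with a gap between the lowest microglia and the highest macrophage value that was small beside the spread in either group. The difference was -0.89 (SE 0.29, 95% confidence interval -1.56 to -0.23) with an adjusted p of 0.107 in limma.

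H2A had 8 tested replication-linked genes with differences of -0.67 to -0.06, and none passed the test. Hist3h2a (H2aw), which lies outside the large clusters, had levels of 2.63, 2.34, 1.86 and 1.79 in microglia and of 0.95, 1.39, 1.41 and 2.21 in macrophages. Only macrophage replicate 4 reached the microglia values, and the difference of -0.67 had an adjusted p of 0.255 in limma. Hist1h2ak (H2ac15), which belongs to the near-identical probes, had 1.03, 1.01, 1.70 and 0.75 in microglia and 0.50, 0.99, 0.57 and 1.29 in macrophages. Its groups overlapped. The brightest probes of the near-identical H2A group had differences of -0.28 to -0.06.

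The linker histones went both ways. Hist1h1c (H1f2), an H1 gene known to be expressed in non-dividing cells too, had levels of 2.48, 1.89, 1.53 and 1.02 in microglia and of 0.29, 1.67, 0.42 and 1.16 in macrophages. The groups overlapped and the difference of -0.84 had an adjusted p of 0.254 in limma. Hist1h1b (H1f5) had levels of -3.65, -4.30, -2.21 and -3.09 in microglia and of -1.37, -2.35, -2.86 and -2.22 in macrophages. Its difference of 1.11 was the only replication-linked one above 0 with an unadjusted p under 0.05, the adjusted p was 0.208 in limma, and the probe was well above background on 2 of the 4 microglia arrays.

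**Figure D2:**
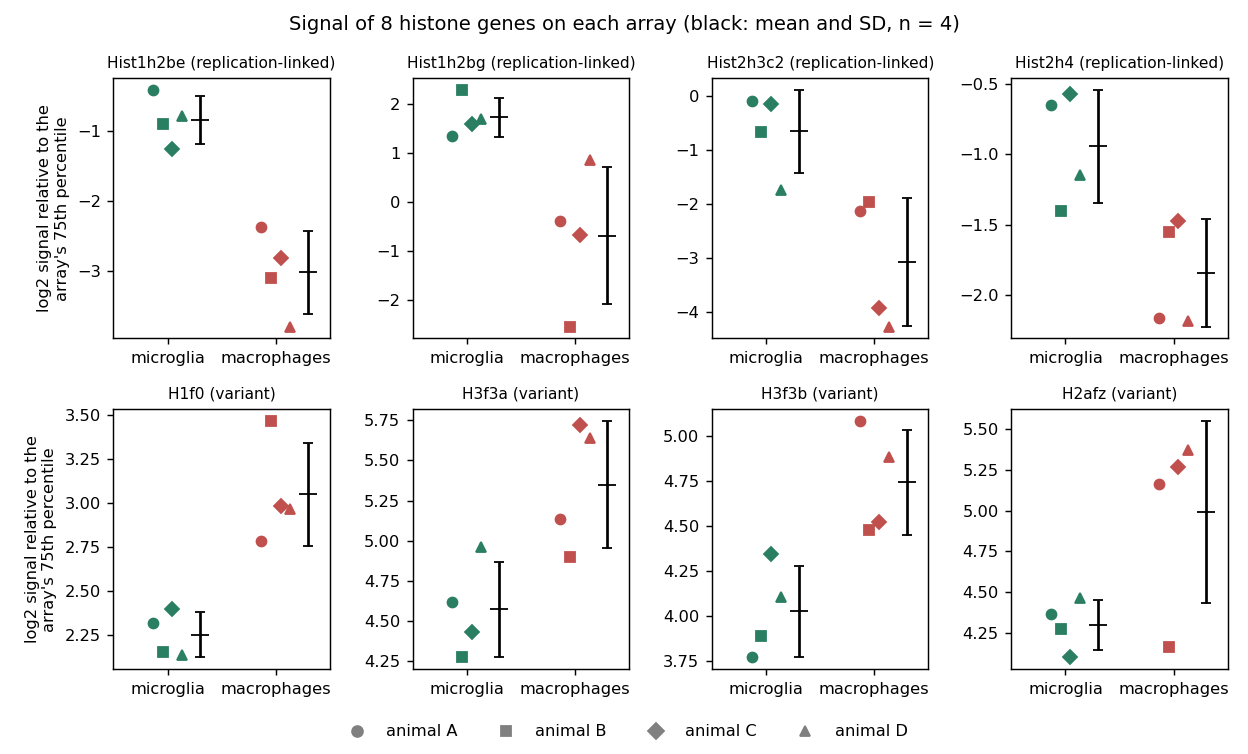
Log2 signal relative to the array's 75th percentile (y axis) of 4 replication-linked genes (upper row) and 4 variants (lower row) on each array, by cell group (x axis), with 1 marker shape per animal and the mean and SD of 4 samples in black. The upper row and H1f0 and H3f3b show groups that do not overlap, and macrophage replicate 2 (animal B) lies among the microglia values for H2afz.

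None of the 11 tested variants passed the test. Their 4 values at an unadjusted p under 0.05 in limma and above 0 were H1f0, H3f3a, H3f3b and H2afz. That is 36.4% of the 11, beside 11.5% of all names. Below 0 there was 1, H1foo, which is 9.09% beside 12.5% of all names. Whether these shares differ from those of all names was not tested. H1f0 encodes H1.0, the linker histone that accumulates in differentiated cells, and its probe lies at chr15:78859930-78859989 of mm9 on the plus strand. Its levels were 2.32, 2.16, 2.40 and 2.14 in microglia and 2.78, 3.46, 2.98 and 2.96 in macrophages. All macrophage values lay above all microglia values, with replicate 2 the highest. The difference was 0.80 (SE 0.22, 95% confidence interval 0.29 to 1.30), a 1.74-fold higher level, and the adjusted p was 0.0703 in limma.

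H3f3a and H3f3b both encode H3.3, the H3 variant placed in chromatin outside DNA replication. H3f3a had levels of 4.62, 4.27, 4.43 and 4.96 in microglia and of 5.14, 4.90, 5.72 and 5.64 in macrophages. Macrophage replicate 2 lay just inside the microglia range, while the macrophage sample was the higher in 4 of 4 animals. The difference was 0.78 (SE 0.27, 95% confidence interval 0.16 to 1.40) with an adjusted p of 0.127 in limma, and without macrophage replicate 2 it was 0.93 with 0.0472. H3f3b had levels of 3.77, 3.89, 4.35 and 4.11 in microglia and of 5.08, 4.48, 4.52 and 4.89 in macrophages. These groups did not overlap, and the difference of 0.72 (SE 0.24, 95% confidence interval 0.17 to 1.26) had an adjusted p of 0.115 in limma.

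The H2A variants were mixed. H2afz encodes H2A.Z, which marks nucleosomes beside the start sites of genes. It had levels of 4.37, 4.28, 4.10 and 4.46 in microglia and of 5.17, 4.16, 5.26 and 5.37 in macrophages, so that 3 macrophage arrays lay above all microglia arrays and replicate 2 lay among them. The difference was 0.69 with an adjusted p of 0.206 in limma, and without macrophage replicate 2 it was 0.97 with 0.0157. H2afx encodes H2A.X, the variant phosphorylated beside DNA breaks. Its levels were -0.29, -1.25, -1.33 and -0.42 in microglia and 0.21, -2.91, -0.51 and -0.25 in macrophages. Replicate 2 was the lowest of the 8 arrays, and the difference was -0.04 with it and 0.64 without it. H2afv, the gene of the second H2A.Z protein, and H2afj had differences of 0.02 and -0.03, with 95% confidence intervals from -1.13 to 1.16 and from -0.59 to 0.52. Without macrophage replicate 2 the H2afv difference was -0.31.

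H2afv had -2.73, -0.57, -1.90 and -1.36 in microglia and -1.92, -0.65, -1.82 and -2.11 in macrophages, and replicate 2 was the highest array within each group. H2afj had 1.02, 1.19, 1.66 and 1.40 in microglia and 1.13, 1.31, 1.03 and 1.68 in macrophages. For both of these brightest probes the spread within a group was larger than the difference between the groups. Each gene had a second passing probe with a higher difference, 1.18 for H2afv and 0.68 for H2afj. Their adjusted p values were 0.516 and 0.232 in a limma fit over all passing probes. The second H2afv probe was well above background on 5 arrays. For the second H2afj probe the macrophage sample was the higher in 4 of 4 animals.

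The macroH2A proteins are H2A variants with a large extra domain. H2afy (macroH2A1) had levels of 3.36, 3.39, 3.15 and 3.38 in microglia and of 3.89, 2.92, 4.02 and 4.02 in macrophages. Macrophage replicate 2 was the lowest of all arrays and the other 3 macrophage arrays were the highest, so the difference was 0.39 with an adjusted p of 0.445 in limma over all arrays and 0.66 with 0.0467 without it. H2afy2 (macroH2A2) had -0.53, -1.34, -1.05 and -0.59 in microglia and -0.84, -0.68, -1.24 and -3.09 in macrophages, and its difference was -0.58 over all arrays and -0.0390 without macrophage replicate 4. H2afy3 is annotated as Macroh2a3, and its probe is listed under a non-coding transcript. It had -0.90, -1.58, -1.50 and -1.19 in microglia and -1.46, -2.32, -2.18 and -4.96 in macrophages. Its difference of -1.44 had an adjusted p of 0.238 in limma, and macrophage replicate 4 was again the lowest array. The probe was well above background on 3 of the 4 macrophage arrays, and without replicate 4 the difference was -0.69. H1foo, the linker histone of the oocyte, had levels of 1.58, 1.27, 1.62 and 1.52 in microglia and of 0.54, 1.08, 1.19 and 0.87 in macrophages. The groups did not overlap and the difference was -0.58 with an adjusted p of 0.161 in limma.

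**Figure D3:**
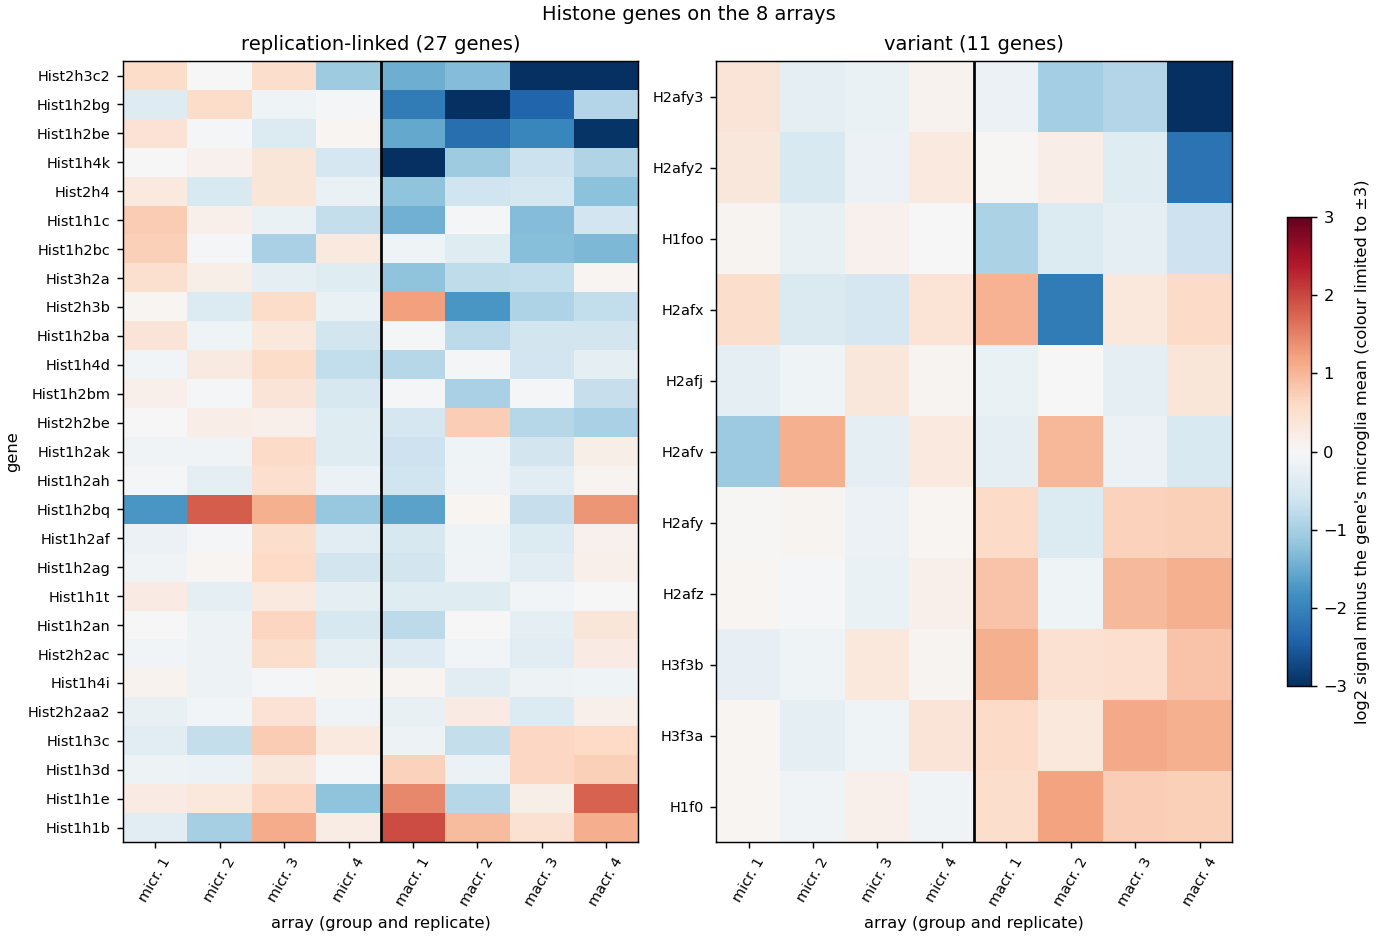
Log2 signal minus the gene's microglia mean (colour, limited to ±3) for the 27 tested replication-linked genes and the 11 tested variants (rows, ordered by their difference) on the 8 arrays (columns). The strongest lower values are those of Hist2h3c2, Hist1h2bg, Hist1h2be, Hist1h4k and H2afy3 on single or several macrophage arrays, and H2afx is low on macrophage replicate 2 only.

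The class medians by array show how much each array and animal contributed. With each gene centred on its microglia mean, the replication-linked median was -0.50, -0.34, -0.53 and -0.02 on macrophage replicates 1 to 4, and 0.01, -0.06, 0.42 and -0.31 on the microglia arrays. Macrophage replicate 4 therefore lay within the microglia range. Within animals A to D the median difference of the same genes was -0.51, -0.18, -0.90 and 0.27, so animal D went the other way. The variant medians were 0.53, -0.01, 0.31 and 0.57 on the macrophage arrays, with replicate 2 the lowest, and 0.50, -0.08, 0.18 and 0.28 within animals A to D.

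Several probes of the same gene gave a further look at these values, and they did not always move together. Of the 13 members with more than 1 probe, 10 had another probe that passed the filter, with 13 such probes in all. The sign matched that of the brightest probe for 10 of the 13 and was opposite for 3, in H2afj, H2afy and Hist2h4. In a limma fit over the 29359 passing probes, 4.11% were called lower and 2.34% higher in macrophages.

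Hist1h4i gave the widest disagreement among the H4 probes. Its brightest probe, which the array files do not place in the genome, had microglia levels of 6.02, 5.77, 5.90 and 6.00 and macrophage levels of 6.00, 5.59, 5.76 and 5.79, a difference of -0.14. Another of its probes, at chr13:22132591-22132650 of mm9 on the minus strand, had 2.32, 1.48, 1.64 and 1.19 in microglia and 0.14, -0.22, 0.87 and -0.01 in macrophages. There the groups did not overlap, and the difference was -1.46 (SE 0.34) with an adjusted p of 0.0400 in the limma fit over probes. The third probe starts 548 bases from the second in the genome and had a difference of -0.28 with an adjusted p of 0.709 in that fit. Whether these probes measure the same message was not tested.

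For Hist2h2aa2, the brightest probe belongs to the near-identical H2A group and gave a difference of -0.06. The probe 112 bases away holds the stem-loop shown above, with most of its bases after that stem-loop. Which message those bases measure was not tested. This probe gave -1.21 (SE 0.47), with an adjusted p of 0.166 in the limma fit over probes. Its levels were -0.67, -0.54, 0.52 and -0.29 in microglia and -1.57, -0.19, -1.88 and -2.19 in macrophages, where replicate 2 was the only macrophage array above the microglia minimum. The second Hist2h4 probe, 227 bases from the first, gave 0.13 in place of -0.89.

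The probes of the H3.3 genes moved alike. The second H3f3a probe had levels of 0.37, -0.32, -0.42 and 0.04 in microglia and of 0.89, 0.97, 0.88 and 1.37 in macrophages. Here the groups did not overlap, the difference was 1.11 (SE 0.26) and the adjusted p was 0.0411 in the limma fit over probes, in which the brightest H3f3a probe had 0.139. The 3 H3f3b probes gave 0.72, 0.77 and 0.62, and the mapped stretches of the first and the third overlap, sharing their lower coordinate. The 2 H2afz probes gave 0.69 and 0.80. The H2afy probes gave 0.39, -0.39 and 0.38 and are listed under different transcripts of that gene.

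**Figure D4:**
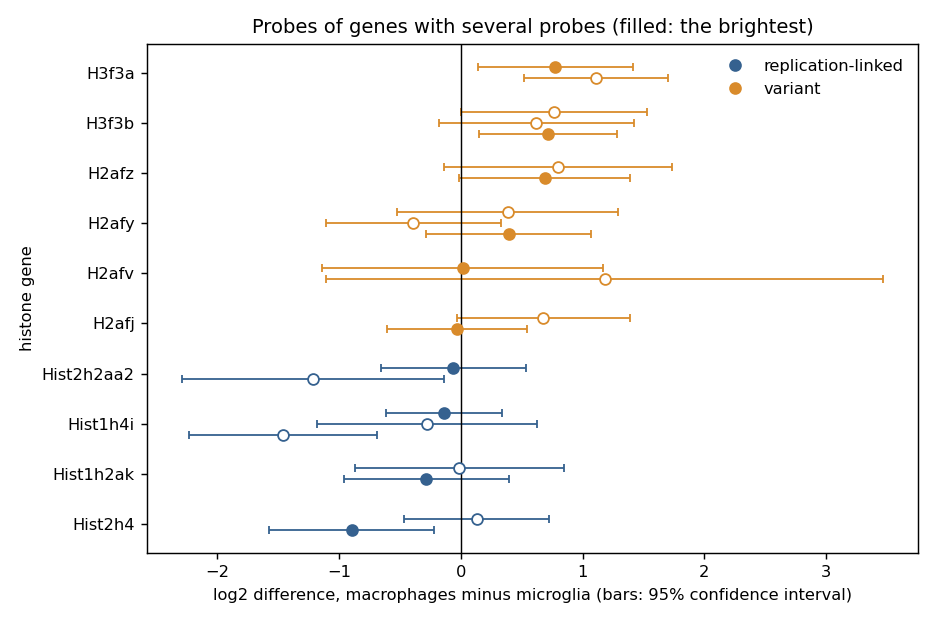
Log2 difference between macrophages and microglia with its 95% confidence interval (x axis) for every passing probe of the 10 histone genes with several such probes (y axis); filled points are the brightest probe of a gene, open points the others, blue is replication-linked and orange variant. The probes of H3f3a, H3f3b and H2afz lie together above 0. Those of the variants H2afv, H2afj and H2afy and of the replication-linked Hist2h2aa2, Hist1h4i and Hist2h4 are spread.

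The promoters of the classes were compared by sequence, which does not draw on the arrays. RefSeq promoter sequences (GRCm38.p6) were found for 55 of the 64 members, and the 250 bases before the start were searched on both strands for 4 short motifs. CCAAT was present in 83.7% of 43 replication-linked promoters, in 53.8% of 13 variant promoters and in 33.8% of all 32851 promoters. TATAA was present in 69.8%, 7.69% and 22.8% of them. The octamer ATTTGCAT, known from H2B promoters, was present in 30.2%, 7.69% and 1.60%, and in 6 of 10 H2B promoters. AAACACA, known from H1 promoters, was present in 20.9%, 7.69% and 6.25%, and in 5 of 6 H1 promoters. The following promoters show the 150 bases before the start, 5′ to 3′ on the gene's strand, with any of the 4 motifs, or its reverse complement, in capitals. They were chosen to set Hist1h2bg, which neighbours the called Hist1h2be in name and position, beside 3 variants with higher values in macrophages.
Hist1h2bg, chr13:23571250-23571399, plus strand: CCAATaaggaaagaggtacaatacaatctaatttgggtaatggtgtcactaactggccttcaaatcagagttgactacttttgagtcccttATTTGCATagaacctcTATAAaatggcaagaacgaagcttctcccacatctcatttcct
H3f3b, chr11:116024505-116024654, minus strand: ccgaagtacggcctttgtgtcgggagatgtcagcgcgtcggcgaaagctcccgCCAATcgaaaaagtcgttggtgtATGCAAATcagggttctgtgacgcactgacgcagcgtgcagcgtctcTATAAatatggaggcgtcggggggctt
H2afz, chr3:137864337-137864486, plus strand: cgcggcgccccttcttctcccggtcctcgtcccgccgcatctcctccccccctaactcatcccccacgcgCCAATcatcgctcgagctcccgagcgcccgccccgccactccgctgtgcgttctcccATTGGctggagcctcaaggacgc
H1f0, chr15:79028062-79028211, plus strand: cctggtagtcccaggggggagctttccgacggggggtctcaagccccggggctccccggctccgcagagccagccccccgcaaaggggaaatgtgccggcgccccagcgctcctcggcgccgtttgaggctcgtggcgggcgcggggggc
In these windows Hist1h2bg held the octamer 59 bases and TATAA 43 bases before the start. H3f3b held the octamer in reverse 74 bases and TATAA 27 bases before it, although its class mostly lacked both. H2afz held CCAAT in both directions, and H1f0 held none of the 4 motifs. These are matches of letters in a window, and no binding was measured.

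The genes that supply and handle histones were set beside the members as lists. The median differences of the lists were all above 0, beside 0.02 for all names, and in each list more differences were above 0 than below. In the histone mRNA supply list, which holds regulators and processing factors of the replication-linked messages, 0 of 17 tested genes were called in either direction (2.51% of all names were called higher) and the median was 0.25. Slbp, the protein that binds the stem-loop, had levels of 2.56, 2.72, 2.45 and 2.37 in microglia and of 3.35, 2.56, 3.55 and 3.09 in macrophages. Its difference of 0.61 had an adjusted p of 0.195 in limma over all arrays and of 0.0382 without macrophage replicate 2. Npat and Casp8ap2, which act at histone gene clusters, had differences of 0.25 and 0.40 with adjusted p values of 0.791 and 0.482 in limma, and Npat had -0.21 without macrophage replicate 2.

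Chaperones carry histones to DNA. Of 17 tested chaperones of replication-linked histones, 1 was called higher, Nap1l1, and the median was 0.59. Nap1l1, a carrier of H2A and H2B, had levels of 0.69, 0.85, 0.48 and 0.87 in microglia and of 2.33, 1.75, 1.74 and 2.06 in macrophages. The groups were far apart, the difference was 1.25 (SE 0.23), and the adjusted p was 0.0148 in limma and 0.0534 once animals were blocked. Chaf1a and Chaf1b, subunits of the replication-coupled assembly factor CAF-1, had differences of 1.13 and -0.02, and Asf1b and Nasp had 0.83 and 0.59, none past the threshold over all arrays. Without macrophage replicate 2, Asf1b had 1.33 with an adjusted p of 0.0307 in limma.

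Of 22 chaperones of variant histones, 1 was called higher, Anp32e, and the median was 0.35. Anp32e, which removes H2A.Z from nucleosomes, had levels of 3.39, 3.67, 3.70 and 4.22 in microglia and of 4.89, 4.54, 4.86 and 4.95 in macrophages. The groups did not overlap, the difference was 1.06 (SE 0.24), and the adjusted p was 0.0360 in limma and 0.0791 once animals were blocked. With that block, Oip5 was the only gene of the list called higher, beside 1.29% of all names. Its difference was 1.75, with an adjusted p in limma of 0.0516 without the block and 0.0370 with it. The H3.3 chaperones Hira, Daxx and Atrx had differences of 0.62, 0.73 and 0.74 with adjusted p values of 0.151, 0.170 and 0.284 in limma. Cenpa, the centromeric H3 variant that the naming rule does not take, had 1.24 with an adjusted p of 0.0965 in limma, and its chaperone Hjurp had 0.30. Without macrophage replicate 2, Oip5 had 1.87, Daxx 0.94 and Cenpa 1.43, with adjusted p values of 0.0394, 0.0406 and 0.0477 in limma.

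DNA replication and mitosis genes are the usual companions of replication-linked histone messages. Of 35 tested replication genes 2 were called higher, Dnmt1 (1.67, adjusted p of 0.0137 in limma) and Mcm2 (1.27, adjusted p of 0.0284 in limma), and the median was 0.92. With an animal block, under which 1.29% of all names were called higher, their adjusted p values were 0.0441 and 0.0790. Of 22 tested mitosis genes 1 was called higher, Ndc80, with a difference of 1.60 and an adjusted p of 0.04996 in limma, and the median was 1.13. That call was lost with an animal block, at an adjusted p of 0.0528, while 1 other mitosis gene was then called higher. Pcna, Mki67 and Top2a had differences of 1.13, 1.27 and 1.26 with adjusted p values of 0.110, 0.147 and 0.158 in limma. Without macrophage replicate 2 they had 1.41, 1.72 and 1.78 with adjusted p values of 0.0229, 0.0124 and 0.0021. These lists thus had medians above 0 in the same samples in which the replication-linked histone median was -0.28. Whether the lists and the histones differ beyond the spread was not tested.

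Macrophage replicate 2 was the lowest macrophage array for 28 of the 35 replication genes and 21 of the 22 mitosis genes. Without it, 15 genes of either list were called higher, as were 3 of the mRNA supply list, 5 chaperones of replication-linked histones and 7 chaperones of variants, beside 8.26% of all names. Among the histones themselves, 3 variants (H2afz, H2afy and H3f3a) were then called higher, beside those 8.26%, and 3 replication-linked genes (Hist1h2be, Hist1h2bg and Hist2h3c2) were called lower, beside 6.86% of all names.

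**Figure D5:**
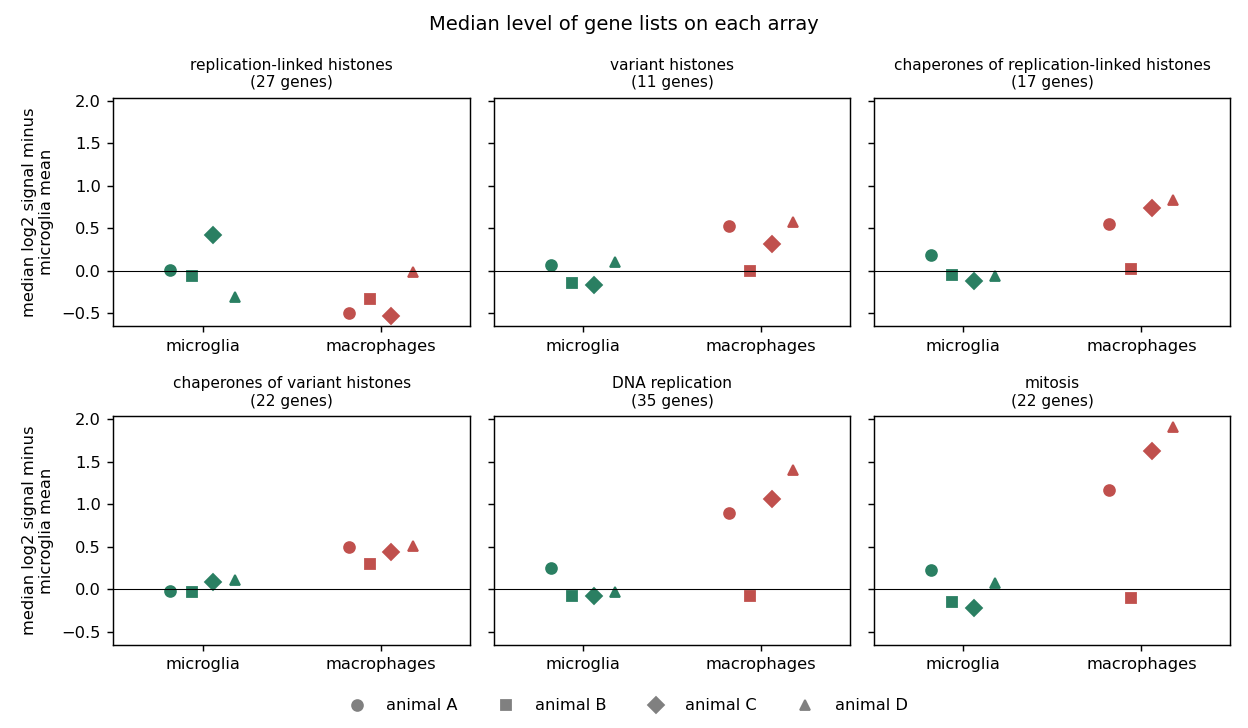
Median log2 signal minus the microglia mean (y axis) of the replication-linked histones, the variants and 4 lists of histone chaperone, DNA replication and mitosis genes on each array, by cell group (x axis) and animal (marker shape). Macrophage replicates 1, 3 and 4 lie above the microglia arrays for replication and mitosis genes while macrophage replicate 2 (animal B) does not, and the replication-linked histone median is below 0 on all 4 macrophage arrays.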

How the data were processed

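RNA of sorted cells was amplified as cDNA and read on 8 one-colour arrays, per the labels' protocols. The processed signal is a background-subtracted intensity that the authors deposited for each array, read with Agilent Feature Extraction 10.7.3.1, per the file headers. A table of log2 values, also deposited by the authors, was used only as an alternative. Its medians were 4.604 to 4.606, it correlated with its own arrays at 0.996 to 1.000, and the sources used here do not give its normalization or centring.

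Control spots and outlier spots were left out, replicate spots were averaged, and log2 signals were set relative to the 75th percentile of their array. A probe was tested if well above background on at least 4 arrays, and the brightest such probe stood for its name. Macrophages were compared with microglia in two-sided tests of limma 3.58.1 (R 4.3.3), adjusted by Benjamini-Hochberg over 19745 names, with a threshold of 0.05, and the fit was tested on simulated data. Python 3.11.15 with numpy 2.4.6 and pandas 2.3.3 made the tables. The number of arrays limits the precision. Slide 1 held 3 arrays (microglia 1 and 2, macrophages 1) and slide 2 held 5.

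Members were named as in the array files, and lists and members were chosen with earlier results of these data known. Named with values on every array were called members, the 2 largest differences of each replication-linked family and all tested variants. Of the supply, chaperone, replication and mitosis lists, Slbp, Nap1l1 and Anp32e were given on every array. The other fixed or called genes of these lists that are named were given by their differences. Same-numbered samples come from the same animal, per the labels. Their deviations from the group means correlated at 0.0628, 0.102, 0.0656 and -0.0122 for animals A to D. Alternatives were the background correction, the scaling, the filter, the mean of probes, RefSeq names only, the deposited log2 table, blocks for animal and slide, single slides and leaving out each array.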

Additional observations from a re-analysis of the deposited data

Results flagged for a closer look

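A sample far from the other 3 of its group, by Dixon's test at the 95% level, was found 4 times among the 76 group tests of the 38 tested members, and chance alone gives about 1 in 20 groups. Macrophage replicate 2 was the sample in 3 of the 4. Its level was 2.92 for H2afy (the other macrophage arrays held 3.89 to 4.02), 4.16 for H2afz (5.17 to 5.37) and 4.29 for Hist1h3d (5.06 to 5.17). In microglia, replicate 3 was low for H2afy at 3.15, with 3.36 to 3.39 on the others.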

How the results depend on the processing

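The number of replication-linked genes called lower was 1. It was 3 with normexp background correction and 2 with the percentile over probes detected on all arrays. It was 0 with the replicate block (animal) together with the slide and on slide 2 alone. Of all 19745 names, 817 were called lower in the main fit, 928 with normexp and 1270 with that percentile. With both blocks 471 were called lower, and on slide 2 alone 114. The number of replication-linked genes called lower ranged from 1 to 3 when each array was left out in turn, with the median difference from -0.52 to -0.15. Over all names, 442 to 1355 were then called lower. The number of variants called higher was 0. It was 1 with centring on the array median (H1f0, 1.001, adjusted p of 0.0332 in limma) and ranged from 0 to 3 with an array left out. Of all 19745 names, 496 were called higher in the main fit, 800 with median centring and 198 to 1630 with an array left out. The variant median of 0.02 became 0.32 with the mean of all passing probes, 0.50 with animal and slide as blocks, 0.51 on slide 1 and -0.14 with the percentile over probes detected on all arrays, and ranged from 0.0820 to 0.64 with an array left out.

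Hist1h2be kept its direction under all 21 alternatives that gave a value and an adjusted p under 0.05 under 18. It missed the threshold with both blocks (-2.17, 0.0604), on slide 1 (-1.72, 0.272) and on slide 2 (-2.21, 0.149). Hist1h2bg passed with normexp (-1.94, 0.0254), the percentile over probes detected on all arrays (-2.56, 0.0322), the filter on all 8 arrays (0.0426) and without macrophage replicate 4 (-2.92, 0.0234), and Hist2h3c2 passed with normexp (-1.12, 0.0383).

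Members near 0 changed sign. H2afj became 0.17 with median centring, 0.32 with the mean of probes and 0.0219 on slide 1, with -0.16 to 0.0820 over left-out arrays. H2afv became -0.0165 with normexp, -0.14 with the other percentile, -0.0289 with the slide block and -0.27 on slide 1, with -0.35 to 0.37 over left-out arrays. H2afx became 0.0566 with normexp, 0.16 with median centring, 0.13 with the slide block, 0.50 with both blocks and 0.98 on slide 1, with -0.40 to 0.64 over left-out arrays. H2afy2 became 0.10 and Hist2h3b 1.41 on slide 1. The cause was not tested.

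Pairing by animal as a block left 1 replication-linked gene called lower (Hist1h2be, 0.0285) and 0 variants called. With this block 0 chaperones of replication-linked histones, 1 chaperone of variant histones, 1 replication gene and 1 mitosis gene were called higher. The lists' calls ranged from 0 to 3 (mRNA supply), 0 to 5 and 0 to 7 (chaperones), 1 to 15 (replication) and 0 to 15 (mitosis) with an array left out. Over all names, 496 were higher and 817 lower, against 800 and 634 with median centring, 451 and 1270 with the other percentile (a shift of all names by -0.16), 510 and 494 with the filter on all 8 arrays, 255 and 483 with the animal block, 271 and 580 with the slide block and 1630 and 1355 without macrophage replicate 2.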
